A study of Mus musculus with 9 samples.

Results

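Interleukin-1 and interleukin-6 signalling was examined in mouse liver through 10 genes: the ligands Il1b, Il18 and Il6, the antagonist Il1rn, the receptor chains Il1r1, Il1rap, Il6ra and Il6st, and the intracellular relay and brake Stat3 and Socs3. The members were all non-control probes whose RefSeq accession, without its version, mapped to 1 of these symbols, which gave 12 of the 55681 distinct probes on the array. Total RNA of whole liver from male mice at 20 weeks of age was hybridised to 1-colour arrays, 1 array per mouse, in 3 groups of 3. STAM mice are C57B/6 J males, as the study's methods spell the strain, made diabetic as newborns with a low dose of streptozotocin, which destroys insulin-secreting beta cells, and fed a high-fat diet from weaning, and at this age the model carries liver tumours. STAM-NON mice had no further treatment, STAM-INS mice received insulin (the long-acting analogue glargine, per the study's methods) until sampling, and Normal mice were lean controls on standard chow. Streptozotocin and the high-fat diet were thus common to both STAM groups and absent from Normal, so that their effects cannot be told apart here.

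IL-1β and IL-18 are made as inactive precursors that caspase-1 cuts within the inflammasome. IL-1 binds IL1R1 together with the accessory protein IL1RAP and signals through MyD88 to NF-κB, and IL-1 receptor antagonist (Il1rn) occupies the receptor without signalling. IL-6 binds its receptor Il6ra and the shared chain gp130 (Il6st), JAK kinases then activate STAT3, and STAT3 induces Socs3, which blocks gp130 and so ends the signal. In liver, hepatocytes answer both cytokines with acute-phase proteins, while Kupffer cells, the resident macrophages, are a main source of the ligands.

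Values are centred log2 signals, the log2 of the background-subtracted spot intensity minus the 75th percentile of its array, so that 1 unit is a 2-fold difference. Levels of different probes cannot be set against each other. Of the 12 probes, 10 probes of 9 genes were tested, being well above background on all 3 arrays of at least 1 group. The Il6 probe and a second probe of Il1rap were not. The slide was a different one for Normal and for STAM arrays, so slide and disease cannot be told apart. All STAM-NON arrays and STAM-INS 1 lay in row 1 of a slide, and all Normal arrays, STAM-INS 2 and STAM-INS 3 in row 2. With the row as a block, STAM-NON against Normal is thus adjusted by STAM-INS 1 against STAM-INS 2 and 3 alone. Row and group cannot be told apart there. For STAM-INS against Normal the block amounts to leaving out STAM-INS 1. Feature Extraction set 59.3% and 63.1% of non-control spots well above background on STAM-NON 1 and 3 and 65.0% on STAM-INS 1, and between 46.2% and 51.1% on the other 6 arrays. In bulk RNA, fewer cells of a type and less RNA per cell cannot be told apart. The hepatocyte markers Alb, Apoa1 and the rest of a list of 8 were all above background on every array, and their summed linear signal, relative to the 75th percentile, ran from 3271 to 4089 in STAM-NON, from 3568 to 4118 in STAM-INS and from 4577 to 4861 in Normal. Singly, 0 of the 8 had a limma adjusted p under 0.05 against Normal in STAM-NON or in STAM-INS, beside 16.1% and 13.9% of all tested probes. Of the 8, 1 lay above 0 in STAM-NON minus Normal and 3 in STAM-INS minus Normal.

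Socs3 was the member that differed from Normal in both STAM groups. In STAM-NON its centred log2 signal was 2.05, 2.73 and 2.04, in STAM-INS 2.77, 2.64 and 2.95, and in Normal 1.72, 0.86 and 0.90. Every STAM array lay above every Normal array, the closest Normal array being Normal 1. Against Normal, Socs3 was 2.16-fold higher in STAM-NON (log2 difference 1.11, SE 0.27, limma adjusted p = 0.0317) and 3.08-fold higher in STAM-INS (1.62, SE 0.27, limma adjusted p = 0.00993). Between the STAM groups the difference was 0.51 with a 95% interval from -0.11 to 1.13 (limma adjusted p = 0.625), and the STAM-NON 2 value of 2.73 lay within the range of STAM-INS. The difference of STAM-INS from Normal stayed between 1.42 and 1.90 over 21 alternative settings, 20 of which kept the call. The call in STAM-NON against Normal was lost in 10 of 21 alternatives, although the difference itself stayed between 0.88 and 1.57. Among them were leaving out STAM-NON 1 (limma adjusted p = 0.063), STAM-NON 3 (0.0567), Normal 2 (0.0943) or Normal 3 (0.0996). Others were the row of the slide on which an array lay as a block (difference 1.14, adjusted p = 0.349) and the replicate number as a block. The call was also lost with median centring, with no filter on dim probes and with only the 2 groups compared. It was lost, too, without the 3 arrays with most spots above background.

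The promoter of Socs3 was searched for the palindrome bound by STAT dimers, TTCNNNGAA, in the 250 bases before the RefSeq start, because STAT3 is known to act on this gene. The motif reads the same on both strands, and 7.02% of 32851 mouse promoter windows of this length held it, or 8.13% of genes in at least 1 of their windows. Among the 10 members, all of which had a window, Socs3 alone held a match, which begins 154 bases before its start. The stretch around it is shown with the match in capitals (RefSeq, GRCm38.p6, chr11:117969482-117969550, minus strand, 5′ to 3′). A match is a string of letters and was not measured as a binding site.
Socs3: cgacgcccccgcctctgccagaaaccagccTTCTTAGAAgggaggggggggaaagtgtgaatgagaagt

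Upstream of Socs3, the receptor and relay genes of the IL-6 arm did not pass the threshold in any comparison. Stat3 has a probe with 10 spots, which read 4.18, 4.62 and 4.74 in STAM-NON, 4.69, 5.0 and 4.73 in STAM-INS and 4.42, 4.53 and 4.24 in Normal. The STAM-INS arrays all lay above the Normal arrays, and the STAM-NON arrays spread across them. The difference of STAM-INS from Normal was 0.41 (95% interval 0.01 to 0.80, limma adjusted p = 0.143), and that of STAM-NON from Normal was 0.12 (-0.28 to 0.51, limma adjusted p = 0.649). A second Stat3 probe, for another accession, gave 0.49 for STAM-INS against Normal (limma adjusted p = 0.141) and 0.19 for STAM-NON against Normal (limma adjusted p = 0.523), so the probes had the same sign and order. Centring on the E1A spike-ins put the 10-spot probe past the threshold in STAM-INS against Normal (0.58, adjusted p = 0.0424).

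Il6ra, the chain that binds IL-6 itself, read 4.61, 5.04 and 5.59 in STAM-NON, 4.39, 4.67 and 4.87 in STAM-INS and 5.09, 5.05 and 5.35 in Normal. STAM-INS lay below Normal on all arrays (difference -0.52, 95% interval -1.08 to 0.03, limma adjusted p = 0.176), whereas STAM-NON spread around Normal (-0.08, -0.64 to 0.47, adjusted p = 0.829). Il6st, which encodes gp130, read 2.96, 2.84 and 3.42 in STAM-NON, 2.65, 3.14 and 3.04 in STAM-INS and 3.07, 2.99 and 2.99 in Normal. All groups overlapped, the 3 differences lay between -0.13 and 0.06, and their 95% intervals reached from -0.55 at the lowest to 0.48 at the highest.

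Il6 itself was near the limit of detection. Its 2 spots were both well above background on STAM-NON 1, STAM-NON 3 and STAM-INS 1, 1 of them was on STAM-INS 2, and none was on the other 5 arrays, Normal included. The centred log2 signal was -3.96, -5.30 and -3.51 in STAM-NON, -3.87, -3.88 and -4.91 in STAM-INS and -5.32, -5.90 and -5.66 in Normal. The 3 arrays with both spots detected are the 3 with the largest share of all spots above background, and the part of that share in the Il6 values was not tested. No fold is given, because the Il6 probe was not measured on all arrays of any group. With the filter on dim probes removed, Il6 did not pass the threshold against Normal in STAM-NON (limma adjusted p = 0.206 over 55655 probes) or in STAM-INS (limma adjusted p = 0.224).

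**Figure D1:**
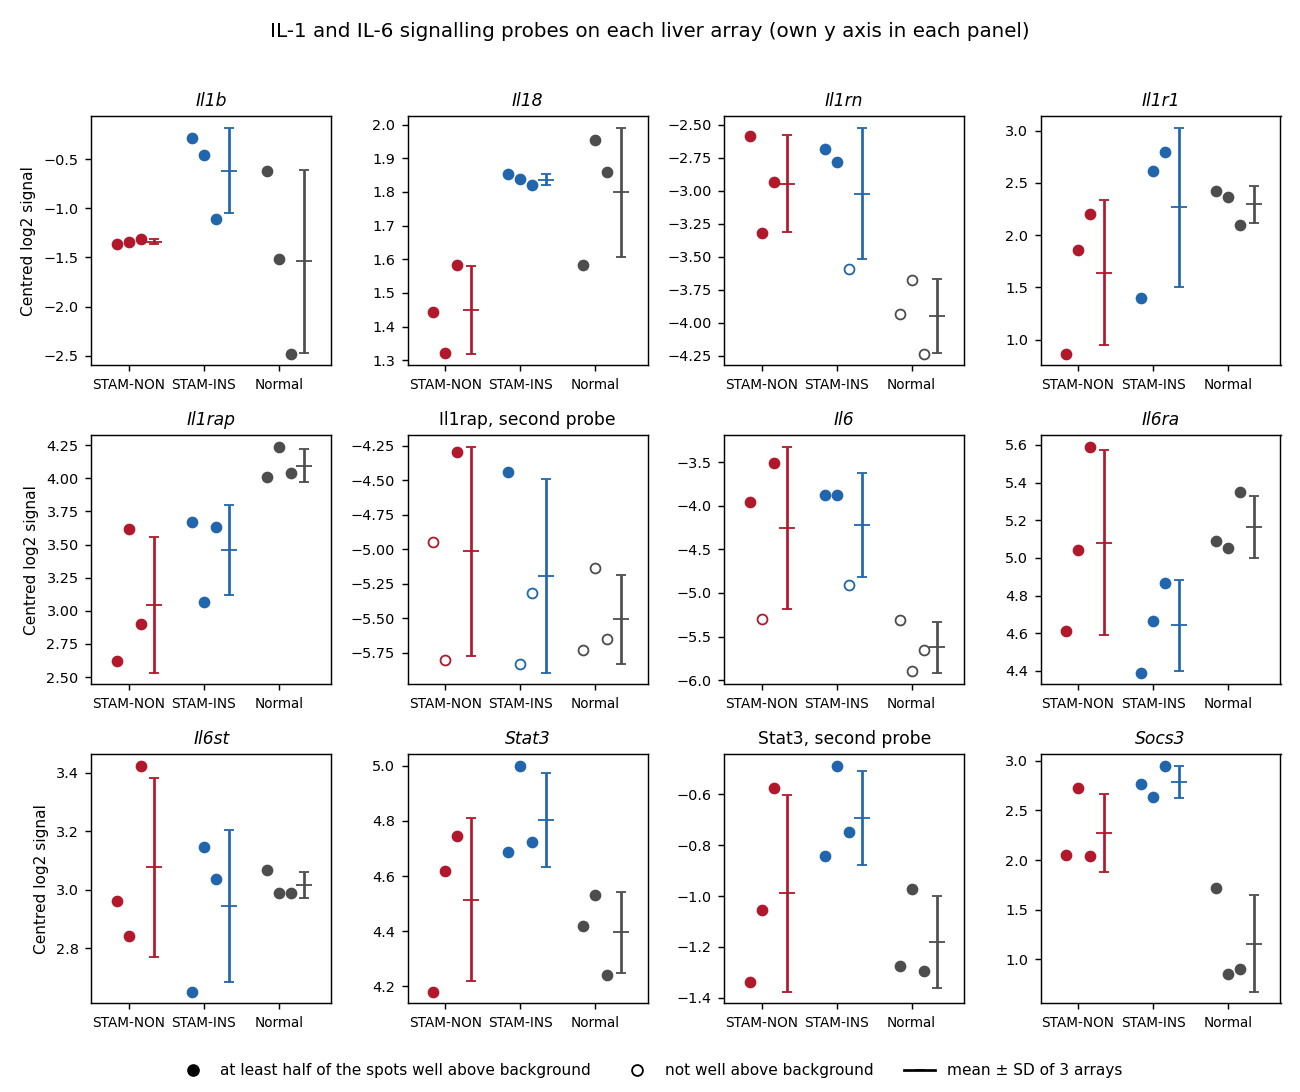
Centred log2 signal of each of the 12 member probes on the 9 arrays, with a y axis of its own in each panel. Filled points are arrays on which at least 0.5 of the probe's spots were well above background, open points the others, and bars give the mean ± SD of 3 arrays. Socs3 is higher on all 6 STAM arrays than on any Normal array, Il1rap is lower on all of them, and the points of Il6 and Il1rn in Normal are all open.

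On the IL-1 arm the antagonist and the accessory chain were the members that passed the threshold. Il1rn read -2.58, -3.32 and -2.94 in STAM-NON, -2.69, -2.78 and -3.59 in STAM-INS and -3.93, -3.68 and -4.23 in Normal. It was well above background on 3 of 3 STAM-NON arrays, 2 of 3 STAM-INS arrays and 0 of 3 Normal arrays. It thus entered the test through STAM-NON alone, the group where it is high. Against Normal, the Il1rn mean was therefore at least 1.83-fold higher in STAM-NON (limma adjusted p = 0.0474). This bound allows for the dim Normal signal and not for the spread between arrays. The 95% interval of the log2 difference ran from 0.35 to 1.65. In STAM-INS the same bound gave at least 1.74-fold higher, which did not pass the threshold (limma adjusted p = 0.0632), and the STAM groups differed by -0.07 (95% interval -0.72 to 0.58). The probe is dim, at 11.97 to 50.01 intensity units, and the difference between STAM-NON and Normal was 0.16 with normexp background correction (adjusted p = 0.223) and 0.50 with the slide row as a block (adjusted p = 0.660). The call was also lost without STAM-NON 1 (limma adjusted p = 0.131), STAM-NON 3 (0.105), STAM-INS 1 (0.0547), STAM-INS 2 (0.0595), Normal 1 (0.110), Normal 2 (0.0803) or Normal 3 (0.138). In all, 15 of 20 alternatives ended the Il1rn call in STAM-NON.

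Il1rap, the co-receptor without which IL1R1 does not signal, was the member called lower. It read 2.62, 3.62 and 2.90 in STAM-NON, 3.67, 3.07 and 3.63 in STAM-INS and 4.01, 4.24 and 4.04 in Normal, so that all 6 STAM arrays lay below all 3 Normal arrays. The difference of STAM-NON from Normal was -1.05 (SE 0.27, limma adjusted p = 0.0348), a 2.07-fold lower level. That of STAM-INS from Normal was -0.64 (95% interval -1.25 to -0.03, limma adjusted p = 0.137), and STAM-INS lay 0.41 above STAM-NON with overlapping arrays (limma adjusted p = 0.698). Of 21 alternatives, 13 ended the call in STAM-NON. The call was lost without STAM-NON 1 (limma adjusted p = 0.0935), STAM-NON 3 (0.0913), Normal 1 (0.0812), Normal 2 (0.0978) or Normal 3 (0.0886). It was also lost with quantile normalization and when centred on E1A spike-ins or on the percentile over detected spots. The same held with no filter on dim probes, with the replicate number as a block and with only the 2 groups compared. With the slide row as a block the difference was -1.37 (adjusted p = 0.255). Without the 3 arrays with most spots above background the difference was -0.48 (adjusted p = 0.391). A second Il1rap probe, for another accession, was above background on STAM-NON 3 and STAM-INS 1 only and was not tested.

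Il1r1, the signalling receptor, read 0.86, 1.86 and 2.20 in STAM-NON, 1.40, 2.62 and 2.79 in STAM-INS and 2.42, 2.36 and 2.10 in Normal. STAM-NON 1 and STAM-INS 1 were the lowest arrays of their groups, and all groups overlapped (STAM-NON minus Normal -0.65, SE 0.42, limma adjusted p = 0.295). Both of these arrays are among the 3 with most spots above background, whereas STAM-NON 3, the other of the 3, read highest in its group at 2.20.

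The ligands Il1b and Il18 passed the threshold in no comparison. Il1b, measured by 10 spots that were all above background on every array, read -1.36, -1.34 and -1.31 in STAM-NON, -0.28, -0.46 and -1.11 in STAM-INS and -0.62, -1.52 and -2.48 in Normal. The STAM-NON arrays spread over 0.052 log2 units, while the Normal mice spread over 1.86 and held the lowest value of all. All STAM-INS arrays lay above all STAM-NON arrays (difference 0.72, 95% interval -0.23 to 1.68, limma adjusted p = 0.653), and STAM-INS lay 0.92 above Normal (-0.03 to 1.88, adjusted p = 0.166). Il18 read 1.44, 1.32 and 1.58 in STAM-NON, 1.85, 1.84 and 1.82 in STAM-INS and 1.58, 1.95 and 1.86 in Normal. The STAM-INS arrays lay above all STAM-NON arrays by a mean of 0.39, 1.31-fold (SE 0.13), which passed 0.05 before adjustment and not after it (limma adjusted p = 0.492). STAM-NON lay 0.35 below Normal (limma adjusted p = 0.0929), with STAM-NON 3 and Normal 1 at the same level.

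**Figure D2:**
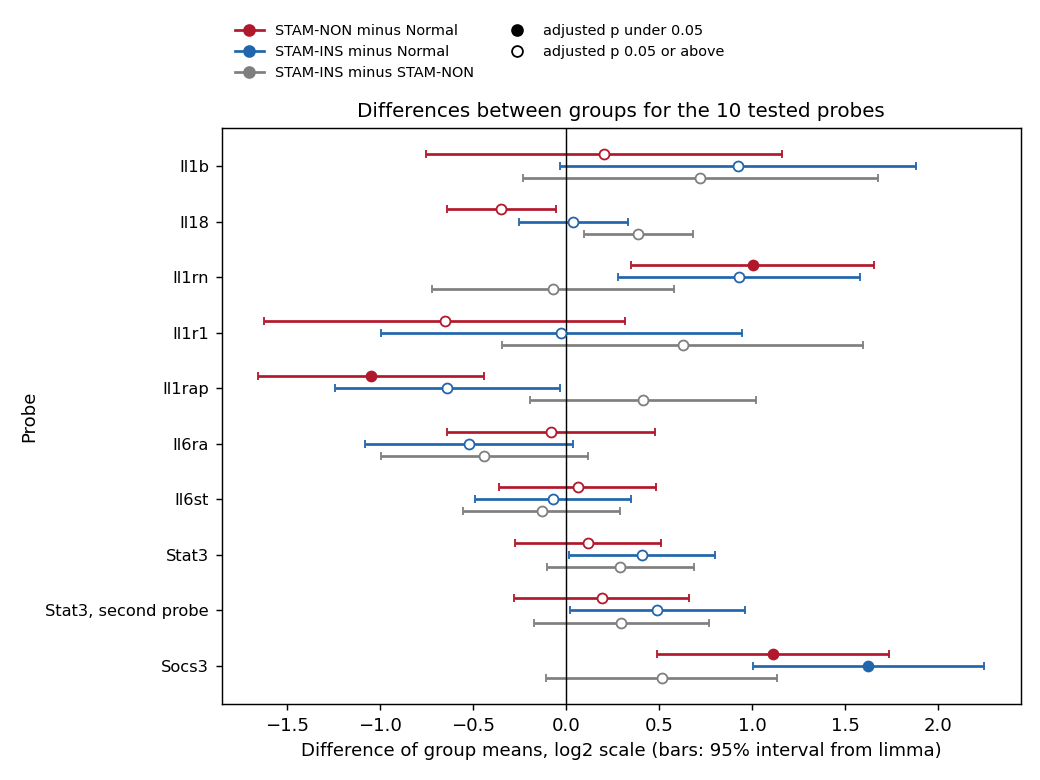
Difference of group means on the log2 scale for the 10 tested member probes in the 3 comparisons, with 95% intervals from limma; filled points have an adjusted p under 0.05. The filled points are Il1rn, Il1rap and Socs3 in STAM-NON minus Normal and Socs3 in STAM-INS minus Normal, and no point of STAM-INS minus STAM-NON is filled.

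Counted over the members, 2 probes were higher and 1 was lower in STAM-NON than in Normal, 3 of 10 tested, where 16.1% of all 26278 tested probes passed, 6.3% higher and 9.76% lower. In STAM-INS against Normal 1 of 10 passed, against 13.9% of all tested probes, 5.16% higher and 8.72% lower. Before adjustment, 4 and 5 of the 10 were under a p of 0.05 in these comparisons, against 35.8% and 32.5% of all. In STAM-INS against STAM-NON 0 of 10 passed by limma, against 0.0913% of all, and 1 of 10 was under an unadjusted p of 0.05, against 8.78% of all. Groups did not overlap for 3 of the 10 probes in STAM-NON against Normal (41.2% of all tested probes), for 6 in STAM-INS against Normal (44% of all) and for 2 between the STAM groups (12.2% of all). The median difference of the 10 probes was 0.09, 0.22 and 0.34 in the same order, beside -0.13, -0.09 and 0.03 over all tested probes. With 10 probes these shares are not read as a property of the members. Il1rn, among the calls in STAM-NON against Normal, entered the test through STAM-NON alone. Both comparisons with Normal share the same 3 Normal arrays, and the 3 member calls of STAM-NON against Normal ranged from 0 to 3 when 1 array was left out at a time, with 0 without STAM-NON 1, STAM-NON 3, Normal 2 or Normal 3 and 1 without Normal 1.

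The wider pathway was read from 8 lists of 86 further genes, of which 68 were tested. In STAM-NON against Normal 9 rose and 2 fell, 11 of 68 in all, which is close to the 16.1% of all tested probes that passed there. Of the 9, Aim2 and Il27ra entered the test through STAM arrays alone. In STAM-INS against Normal 11 rose and 2 fell, 13 of 68, beside 13.9% of all tested probes. In STAM-INS against STAM-NON 0 passed by limma, with 9 under an unadjusted p of 0.05, beside 0.0913% and 8.78% of all. The count of 11 in STAM-NON against Normal rests on few arrays: it was 7, 17 and 5 without STAM-NON 1, 2 and 3, and 2, 2 and 1 without Normal 1, 2 and 3. It was 0 with the slide row as a block, under which 15 of the 26278 tested probes passed. The row did not vary within STAM-NON or within Normal, so that fit took its effect from the STAM-INS arrays alone. The count for STAM-INS against Normal was 5 without STAM-INS 2, and 6, 5 and 7 without Normal 1, 2 and 3. Markers of cells that produce these cytokines differed unevenly between the groups. The summed linear signal of 6 Kupffer cell markers ran from 148 to 267 in STAM-NON, from 116 to 304 in STAM-INS and from 66.2 to 103 in Normal, and Clec4f and Cd5l were the 2 of the 6 that passed, both higher, in each STAM group. That of 6 monocyte and macrophage markers ran from 60.2 to 100, from 58.8 to 106 and from 40.2 to 54.8, with 1 of 6 passing in each STAM group, Trem2, while Itgam differed by 0.01 (limma adjusted p = 0.965) and Lyz2 by 0.36 (0.539) in STAM-NON. The sum of 8 neutrophil markers was 202 in STAM-NON 3, against 16.2 and 9.82 in the other STAM-NON arrays, and ran from 10.9 to 28.9 in STAM-INS and from 8.07 to 8.76 in Normal. Of the 6 neutrophil markers tested 0 passed as higher, and Elane was lower in STAM-INS (-0.59, limma adjusted p = 0.0179). In STAM-NON against Normal, 1 of 6 endothelial markers passed (Lyve1, higher), and 3 of 4 tested bile duct cell markers were called higher. There, 0 of 7 stellate cell and fibroblast markers and 0 of 4 tested T and B cell markers passed. In STAM-INS against Normal, 1 of 4 bile duct cell markers was called higher, and none of the other 3 lists had a call. The part of all these cells in the results was not tested.

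Of the other IL-1 family ligands and their binding protein, 2 of 8 were measurable, and 0 of these 2 passed by limma in any comparison. Both were under an unadjusted p of 0.05 in STAM-NON against Normal. Of all tested probes, 16.1% passed and 35.8% were under that p there. Il18bp, the secreted decoy that neutralises IL-18, read 2.26, 1.65 and 2.73 in STAM-NON, 1.79, 2.87 and 1.93 in STAM-INS and 0.79, 0.92 and 1.35 in Normal, without overlap between STAM and Normal (STAM-NON minus Normal 1.19, limma adjusted p = 0.0512). Il33, an alarmin of the family, lay 1.02 above Normal in STAM-NON (limma adjusted p = 0.0743). Among 6 further IL-1 family receptors only Sigirr, an inhibitory receptor, was measurable (0.16, limma adjusted p = 0.475).

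The inflammasome list had 5 of 7 genes tested. Aim2, a sensor of cytosolic DNA, was above background on all 3 STAM-NON arrays, on STAM-INS 1 and on no Normal array. It thus entered the test through STAM-NON alone, the group where it is high. Its values were -4.01, -2.58 and -3.91 in STAM-NON, -4.69, -5.91 and -5.78 in STAM-INS and -5.67, -5.93 and -6.09 in Normal. Aim2 in STAM-NON was at least 1.32-fold higher than Normal (limma adjusted p = 0.0150). The Aim2 call was lost with normexp background correction (adjusted p = 0.110), with no filter on dim probes (0.0699), with the slide row as a block (0.404) and without Normal 2 (0.0504) or Normal 3 (0.055). Casp1, which cuts IL-1β and IL-18, lay above Normal without overlap in both STAM groups, by 1.11 in STAM-INS (limma adjusted p = 0.0329) and by 0.90 in STAM-NON (limma adjusted p = 0.0554). Casp4, the sensor of bacterial lipopolysaccharide, did so too, by 1.12 in STAM-INS (limma adjusted p = 0.0459) and by 0.96 in STAM-NON (limma adjusted p = 0.0647). Between the STAM groups the difference was 0.21 for Casp1 (95% interval -0.41 to 0.83, limma adjusted p = 0.856) and 0.16 for Casp4 (-0.54 to 0.86, adjusted p = 0.910). In STAM-INS the call of Casp1 was lost in 8 of 22 alternatives, among them leaving out any 1 array of STAM-INS or Normal, and that of Casp4 in 14 of 22, among them leaving out STAM-NON 1, STAM-INS 1, STAM-INS 2 or any 1 Normal array.

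In the relay from MyD88 to NF-κB, 18 of 19 genes were tested. Tnfaip3, which encodes the NF-κB brake A20, rose in STAM-NON (1.24, limma adjusted p = 0.0220), with arrays at -0.01, -0.74 and 0.06 against -1.63, -1.56 and -1.21 in Normal. The Tnfaip3 call was lost in 9 of 22 alternatives, among them leaving out STAM-NON 1, STAM-NON 3 or any 1 Normal array. Ikbkb, a kinase that releases NF-κB, differed by -0.38 (limma adjusted p = 0.0469), a call that 20 of 22 alternatives ended, leaving out any 1 of the 9 arrays included, and the difference was -0.034 with E1A centring (adjusted p = 0.885). In STAM-INS against Normal, Irak3, an inhibitory member of the IRAK family, rose by 1.58 (limma adjusted p = 0.0316), the adaptor Tab2 by 0.73 (0.0171) and the kinase Irak4 by 0.58 (0.0219). Nfkbia, the inhibitor IκBα, fell by 0.71 there (limma adjusted p = 0.0168). Of 22 alternatives, 7 ended the call of Irak3, 6 that of Tab2, 10 that of Irak4 and 6 that of Nfkbia. Leaving out STAM-INS 2 or Normal 2 ended each of the 4, leaving out Normal 1 those of Irak3, Tab2 and Irak4, leaving out Normal 3 those of Irak3, Irak4 and Nfkbia, and leaving out STAM-INS 3 those of Irak3 and Irak4.

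Receptors of other IL-6 family cytokines passed the threshold in both STAM groups. Lifr, the receptor chain for leukaemia inhibitory factor that pairs with gp130, read 2.06, 3.61 and 2.88 in STAM-NON, 4.19, 2.70 and 3.63 in STAM-INS and 5.12, 5.07 and 5.14 in Normal. All STAM arrays lay below the Normal arrays, which lay close together. Lifr fell by 2.26 on the log2 scale in STAM-NON (SE 0.44, limma adjusted p = 0.0176) and by 1.60 in STAM-INS (limma adjusted p = 0.0464). Osmr, the oncostatin M receptor that also pairs with gp130, rose in STAM-NON by 1.31 (limma adjusted p = 0.0429), with arrays at 0.92, 0.19 and 1.64 against -0.34, -0.50 and -0.34. Il27ra, the receptor of IL-27, was above background on all 6 STAM arrays and on no Normal array, so it entered the test through the STAM groups alone. Its STAM-NON mean was at least 2.0-fold higher than Normal (limma adjusted p = 0.00759). The sheddase Adam10, which releases soluble IL-6 receptor, rose by 0.46 in STAM-NON (limma adjusted p = 0.0443). Of 22 alternatives, 6 ended the Lifr call in STAM-NON, 11 that in STAM-INS, 14 the Osmr call and 15 the Adam10 call. The Lifr call in STAM-NON was lost without any 1 Normal array, and that in STAM-INS also without STAM-NON 3, STAM-INS 2 or STAM-INS 3. Those of Osmr and Adam10 were lost without any 1 Normal array and without STAM-NON 1, STAM-NON 3, STAM-INS 1 or STAM-INS 3. Without the 3 arrays with most spots above background, Osmr differed by 0.58 (adjusted p = 0.402), Adam10 by 0.28 (0.439) and Lifr by -1.50 (0.144) in STAM-NON. The Il27ra call in STAM-NON was lost with normexp (difference 0.17, adjusted p = 0.320) and with the slide row as a block (adjusted p = 0.154). In all, 3 of 7 tested genes of this list were called higher and 1 lower in STAM-NON, beside 6.3% and 9.76% of all tested probes, and 1 higher and 1 lower in STAM-INS, beside 5.16% and 8.72%.

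Of 9 IL-6 family ligands 6 were tested. Ebi3, a subunit of IL-27, rose in STAM-NON by 1.40 (limma adjusted p = 0.0344), a call lost in 10 of 22 alternatives, among them leaving out STAM-NON 1, STAM-NON 3 or any 1 Normal array, and the difference was 0.67 without the 3 arrays with most spots above background (adjusted p = 0.393). In the JAK-STAT relay 0 of 9 tested genes passed in any comparison by limma, with 1 gene (Ptpn6) under an unadjusted p of 0.05 in each comparison with Normal and 0 between the STAM groups. Of all tested probes, 16.1% passed in STAM-NON against Normal, 13.9% in STAM-INS against Normal and 0.0913% between the STAM groups. Before adjustment these shares were 35.8%, 32.5% and 8.78%. With 9 genes the counts are not read as a property of the relay. The largest differences of STAM-NON from Normal were those of Socs2, a brake on growth hormone signalling (-1.10, limma adjusted p = 0.267), and the kinase Tyk2 (-0.82, 0.226), where Normal 3 at 2.28 stood above the other 8 arrays, at 0.06 to 0.56.

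NF-κB and STAT motifs were also searched in the windows of the named list genes that passed, of which 15 of 18 had a window. None held the STAT palindrome, and 4 held the NF-κB consensus (by its name, either strand), beside 4.46% of all genes: Casp4, Tnfaip3, Nfkbia and Ebi3. Of the members, Il6 and 1 of the windows of Il1r1 held it. The lists were chosen as genes of this pathway, so the share with a match is not read as a property of the genes that passed. Nfkbia, which holds a match, was lower in STAM-INS than in Normal (-0.71). No match was measured as a binding site. The windows of Tnfaip3 and Ebi3, which rose in STAM-NON, are shown with the matches in capitals (RefSeq, GRCm38.p6, 5′ to 3′, chr10:19015411-19015565 on the minus strand and chr17:55952549-55952618 on the plus strand). The Tnfaip3 window shown holds a pair of matches, beginning 125 and 12 bases before the start, while another window of Tnfaip3 held no match.
Tnfaip3: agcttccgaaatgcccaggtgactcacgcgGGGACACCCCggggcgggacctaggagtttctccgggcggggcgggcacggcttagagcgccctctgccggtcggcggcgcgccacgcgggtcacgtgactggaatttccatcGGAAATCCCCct
Ebi3: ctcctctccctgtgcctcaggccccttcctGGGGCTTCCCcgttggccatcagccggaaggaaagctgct

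**Figure D3:**
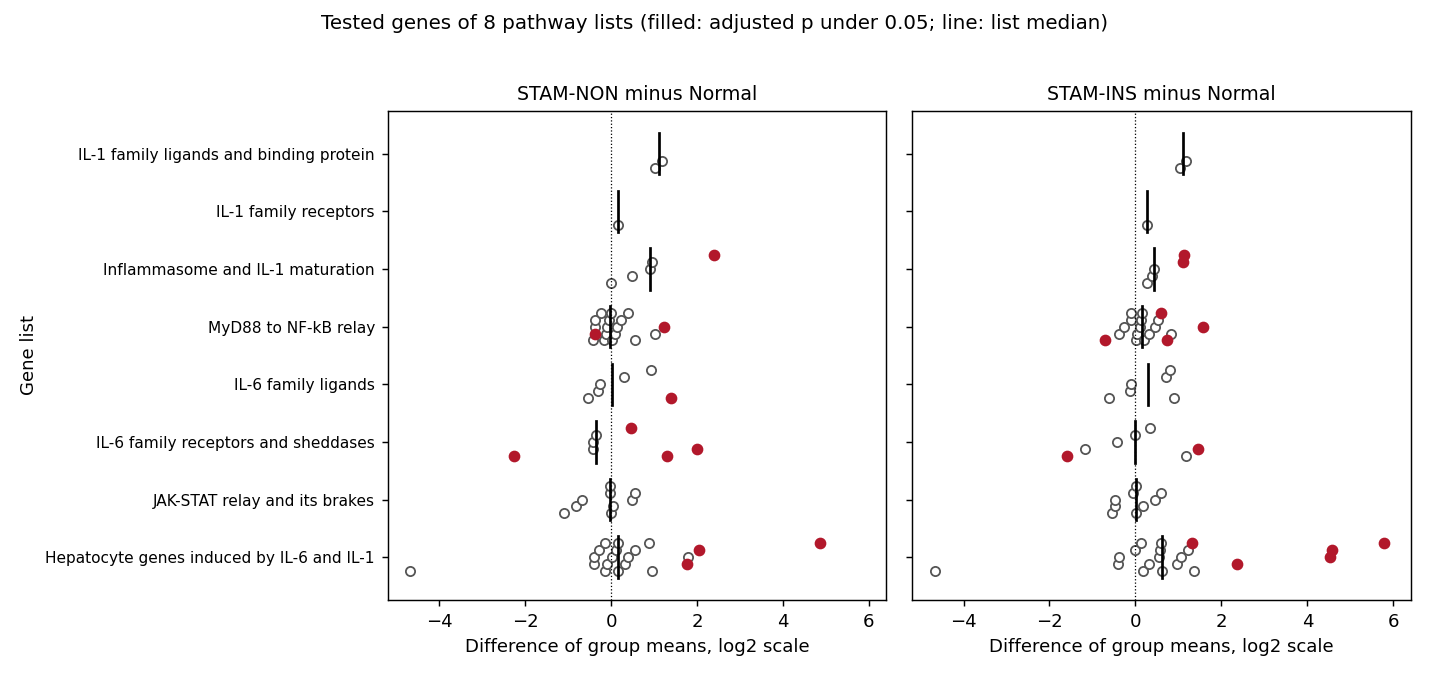
Difference of group means on the log2 scale for the 68 tested genes of the 8 pathway lists, in STAM-NON minus Normal (left) and STAM-INS minus Normal (right); filled points have an adjusted p under 0.05 and vertical lines are list medians. Lcn2, from the list of hepatocyte genes, is the point farthest to the right in both panels, followed in the right panel by Saa1 and Saa2. Lifr is the filled point farthest to the left in both panels.

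Among hepatocyte genes that IL-6 and IL-1 induce, 3 of 20 were called higher in STAM-NON, beside 6.3% of all tested probes. In STAM-INS 5 of 20 were called higher, beside 5.16%. None was called lower, while 13 of 20 lay above 0 in STAM-NON and 16 of 20 in STAM-INS. The median difference of the list was 0.16 and 0.61, beside -0.13 and -0.09 over all tested probes. Lcn2, which encodes the iron-scavenging lipocalin 2, read 5.63, 3.90 and 6.47 in STAM-NON, 5.42, 8.31 and 5.07 in STAM-INS and 0.29, 1.06 and 0.09 in Normal, a difference of 4.85 in STAM-NON (limma adjusted p = 0.0163) and of 5.79 in STAM-INS (limma adjusted p = 0.00773). Within each STAM group, though not within Normal, the Lcn2 arrays ran in the same order as the summed neutrophil markers. The part of neutrophils in the Lcn2 signal was not tested. Fgl1, a secreted fibrinogen-like protein of hepatocytes, rose by 1.77 in STAM-NON and by 2.36 in STAM-INS (limma adjusted p = 0.0210 and 0.00750). The serum amyloid A genes Saa1 and Saa2 are near-identical copies whose probes may share signal. Saa2 read 5.42, 7.35 and 7.31 in STAM-NON, 8.27, 9.82 and 9.42 in STAM-INS and 4.41, 5.08 and 4.45 in Normal, so that every STAM-INS array lay above every STAM-NON array and these above Normal. It rose by 2.05 in STAM-NON (limma adjusted p = 0.0456) and by 4.52 in STAM-INS (limma adjusted p = 0.00387). Saa1 rose by 4.57 in STAM-INS (limma adjusted p = 0.00431). In STAM-NON, 6 of 22 alternatives ended the Lcn2 call, 6 the Fgl1 call and 11 the Saa2 call. Leaving out Normal 1 or Normal 3 ended each of the 3, Normal 2 those of Fgl1 and Saa2, STAM-NON 1 that of Lcn2, and STAM-NON 2, STAM-NON 3, STAM-INS 2 or STAM-INS 3 that of Saa2.

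Between the STAM groups, Saa1 lay 2.77 and Saa2 2.48 higher with insulin, which passed 0.05 before adjustment and not after it (limma adjusted p = 0.311 and 0.329). Over the whole list of 20 hepatocyte genes, 18 lay above 0 in STAM-INS minus STAM-NON with a median of 0.48, beside 0.03 over all tested probes. Of the 20, 0 passed by limma and 4 were under an unadjusted p of 0.05, beside 0.0913% and 8.78% of all tested probes. All 20 were read on the same arrays, so their signs are not independent. Hamp, the iron hormone hepcidin, is the open point at the far left of the list and is named after its values were seen: its difference of STAM-NON from Normal was -4.68 with an SE of 2.72 (limma adjusted p = 0.245).

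**Figure D4:**
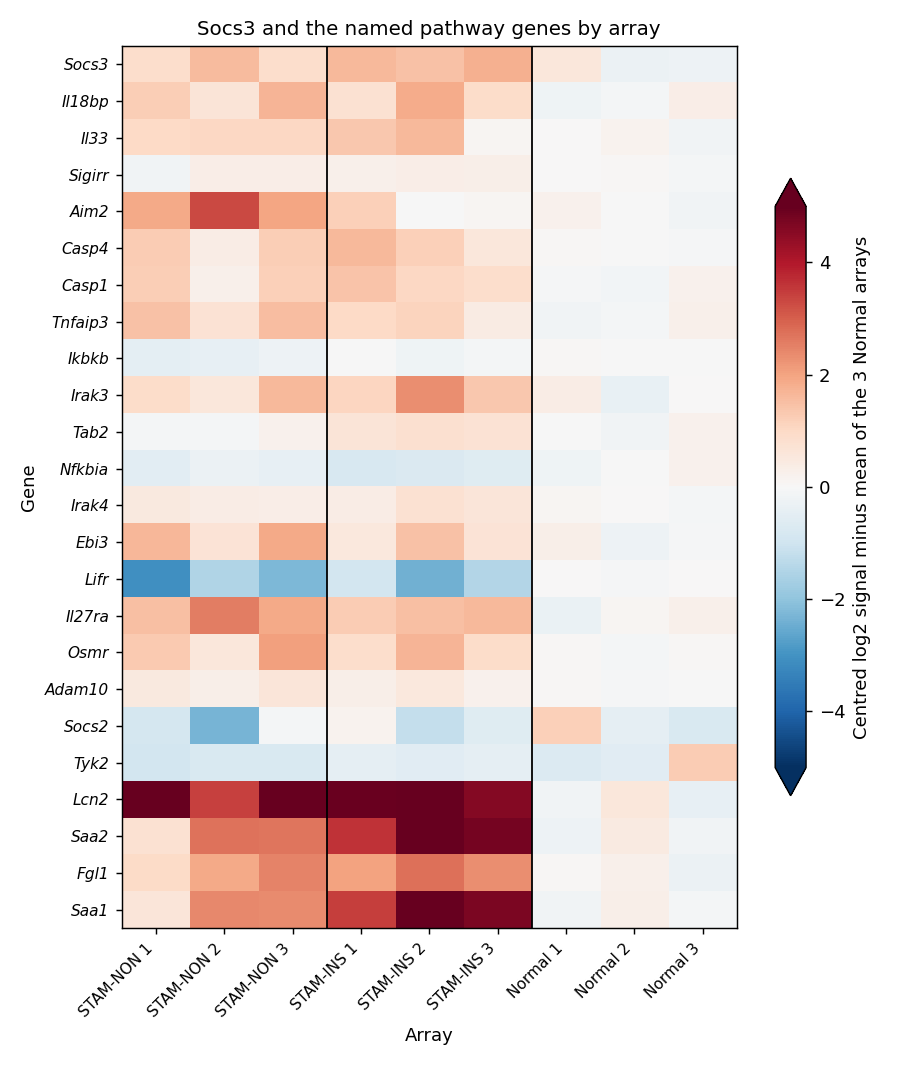
Centred log2 signal of Socs3 and the named pathway genes on each array, as the difference from the mean of the 3 Normal arrays; colours saturate beyond the ends of the bar. Lcn2, Saa1, Saa2 and Fgl1 are red on all 6 STAM arrays, Lifr is blue on all of them, and Aim2 is red mainly on the STAM-NON arrays.

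Genes that followed the members over the 9 arrays were sought among 13386 named genes by Pearson's r, as a description of these arrays, which share group, slide and scaling. Closest to Socs3 were Gfpt1 (r = 0.985), Slc10a3 (0.975) and N4bp3 (0.973). Closest to Il6ra were Fcmr (0.956), Fam171a1 (0.917) and Dhx9 (0.908), and closest to Il1b were Cldn3 (0.912), Commd5 (0.907) and Ccnq (0.905). None of these 9 genes belongs to the lists above.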

How the data were processed

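Liver RNA of 9 mice was measured on Agilent SurePrint G3 mouse arrays (design built on mm9). The deposited files hold spot intensity from Agilent Feature Extraction 11.5.1.1, background-subtracted by the authors and not normalised between arrays, and other columns with flags and identifiers per the file headers. Names come from RefSeq (GRCm38.p6), used for names and promoter windows only. No spot was saturated (0). Spots with outlier flags were dropped, and spots of a probe averaged. Values were log2 intensity minus the 75th percentile of each array. Probes entered the test with a share of 0.5 or more of their spots well above background on all 3 arrays of a group. The number of arrays limits the precision. Comparisons of the labelled groups used limma (version 3.58.1, R 4.3.3; all 9 arrays, 6 residual degrees of freedom, two-sided, Benjamini-Hochberg over 26278 probes, threshold 0.05); the methods name no test for the arrays. Code was tested on simulated data. A bound ("at least") sets the brighter mean against the mean, over the dim arrays, of the higher of 2 values: the lowest signal among probes well above background on that array, and the dim probe's own signal. It allows for dim signal only, and not for the spread between arrays or for another background correction. Per list, 1 probe per gene (highest mean) was used, up to 4 genes past the threshold with the largest differences were named per comparison, and the 2 largest where fewer than 2 passed in STAM-NON. A result under this rule is not reported here. The members and lists were chosen with earlier results of these data known. Alternatives were other centrings, quantile normalisation, normexp (on median intensity, offset 50), other filters, blocks, group subsets, the study's cut-off and leaving out arrays. The sources name different RNA kits for these samples.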

Additional observations from a re-analysis of the deposited data

How the results depend on the processing

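Calls in STAM-NON against Normal depended on the settings. The 3 member probes called there became 1 with quantile normalization and 1 centred on the median, and 0 with no filter on dim probes, with the slide row as a block, with only the 2 groups compared and without the 3 arrays with most spots above background (an alternative chosen after seeing the data). The 11 pathway genes called there became 24 centred on E1A spike-ins, 1 with no filter, 0 with the slide row as a block, 7 with only the 2 groups compared and 3 without those 3 arrays. In STAM-INS against Normal the 1 member probe became 2 centred on E1A spike-ins and 0 with no filter, and the 13 pathway genes became 4 with no filter and 21 with only the 2 groups compared. In STAM-INS against STAM-NON the 0 pathway genes became 4 at an unadjusted p under 0.1 with over 2-fold, and 1 without those 3 arrays. Leaving out 1 array at a time gave 0 to 3 member probes and 1 to 17 pathway genes in STAM-NON against Normal, 1 to 2 and 5 to 17 in STAM-INS against Normal, and 0 and 0 between the STAM groups. The replicate numbers did not pair the arrays (correlations of the deviations of same-numbered arrays between -0.288 and 0.149), and with the replicate number as a block the counts were 0 member probes in STAM-NON against Normal and 8 pathway genes in STAM-INS against Normal, with the other counts within 1.5 times. The slide itself could not be fitted as a block for the comparisons with Normal. The slide row did not vary within STAM-NON or within Normal, so its block rested on the STAM-INS arrays alone. The cause of these changes was not tested.

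The Socs3 call in STAM-INS against Normal was lost only with no filter (adjusted p = 0.0521), and those of Lcn2, Saa1, Saa2 and Fgl1 there were kept in all 22 alternatives. Centring moved the median difference of all tested probes in STAM-NON against Normal from -0.13 to 0.04 (75th percentile over spots above background on all arrays), -0.04 (quantile), 0.21 (E1A) or -0.29 (median), and the share of higher calls from 39.2% to 68.7%, 51.9%, 88.5% or 34.6%, and with normexp to 27.9%. In STAM-INS against Normal that share moved from 37.2% to 58.4% and 70.3% with the first and the E1A centring, and between the STAM groups from 12.5% to 29.4% of 17 calls with normexp. Some differences that passed in no setting changed sign between settings. Il18 in STAM-INS minus Normal, 0.038 as fitted, was -0.13 with median centring and -0.069 to 0.12 with 1 array left out. Il1b in STAM-NON minus Normal, 0.20 as fitted, was -0.0061 with normexp, -0.30 with the slide row as a block and -0.27 to 0.66 with 1 array left out. Il1r1 in STAM-INS minus Normal, -0.026 as fitted, was 0.11 with the percentile over detected spots, 0.064 with quantile normalization, 0.15 with E1A centring, 0.41 with the slide row as a block, 0.41 with those 3 arrays left out and -0.29 to 0.41 with 1 array left out. Il1r1 in STAM-INS minus STAM-NON, 0.63 as fitted, was -0.24 with the slide row as a block. Il1r1 in STAM-NON minus Normal, -0.65 as fitted, was 0.65 with the slide row as a block. Il1rap in STAM-INS minus STAM-NON, 0.41 as fitted, was -0.27 with those 3 arrays left out. Il1rn in STAM-INS minus STAM-NON, -0.073 as fitted, was 0.059 with normexp, 0.26 with the slide row as a block, 0.13 with those 3 arrays left out and -0.26 to 0.21 with 1 array left out. Il6ra in STAM-NON minus Normal, -0.082 as fitted, was 0.092 with the percentile over detected spots, 0.16 with quantile normalization, 0.26 with E1A centring, 0.032 with normexp, 0.30 with the slide row as a block and -0.34 to 0.15 with 1 array left out. Il6st in STAM-INS minus Normal, -0.072 as fitted, was 0.060 with the percentile over detected spots, 0.044 with quantile normalization, 0.10 with E1A centring, 0.075 with the slide row as a block, 0.075 with those 3 arrays left out and -0.17 to 0.075 with 1 array left out. Il6st in STAM-INS minus STAM-NON, -0.13 as fitted, was 0.25 with those 3 arrays left out and -0.25 to 0.041 with 1 array left out. Il6st in STAM-NON minus Normal, 0.061 as fitted, was -0.092 with median centring, -0.17 with those 3 arrays left out and -0.11 to 0.18 with 1 array left out. Stat3 in STAM-NON minus Normal, 0.12 as fitted, was -0.035 with median centring. Stat3 second probe in STAM-NON minus Normal, 0.19 as fitted, was -0.016 to 0.37 with 1 array left out.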
